A study of Mus musculus with 9 samples.

Results

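Mouse bone marrow mesenchymal stem cells grown for 7 days in osteogenic medium with dicalcium silicate (C2S) were compared with the same cells grown for 7 days in proliferation medium (PM), as RNA levels of linear genes and of circular RNAs. The groups were 3 libraries labelled C2S and 3 libraries labelled PM, which are 6 of the 9 libraries of the series. The other 3 libraries, from osteogenic medium without silicate (OM), are given beside them as a reference, though not for every gene or circRNA. All groups came from a commercial stock of these cells, whose strain, genotype and donor age the labels do not give. C2S and OM cells received dexamethasone at 100 nM, ascorbic acid at 0.2 mM and beta-glycerophosphate at 10 mM, so C2S differs from PM by the silicate and by these 3 additions together, and only C2S against OM isolates the silicate. The C2S dose of the sequenced cells is not tied to them in the labels and is not given here. Whether the libraries of a group were separate cultures is not stated in the labels, and p-values therefore describe the spread among these libraries, which could be technical only. Of 31405 linear genes listed, the 13049 with a level of at least 1 in at least 3 of the 9 libraries were tested, and of 6614 circular RNAs the 2898 listed in at least 3 libraries. A gene could pass this filter through the libraries of a single group.

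Mesenchymal stem cells of the marrow give rise to osteoblasts, adipocytes and chondrocytes. Osteogenic medium drives them towards bone with a glucocorticoid, with ascorbic acid, which the enzymes that hydroxylate collagen need, and with beta-glycerophosphate, a phosphate source for mineral. Dicalcium silicate is a bioceramic that releases calcium and silicate ions. Growth factor and integrin signals reach the nucleus through the MAP kinase ERK, which switches on immediate-early genes within minutes and, later, the genes of its own feedback inhibitors. Circular RNAs form when a downstream splice donor joins an upstream acceptor, and their back-splice junction is read by sequencing.

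Linear levels are FPKM, in which the fragments on a gene are divided by its transcript length and by the library's total, and differences are given as log2 differences on the log2(FPKM + 1) scale with the standard error, which understates the change of low genes. All adjusted p-values are from limma, fitted over all 9 libraries and adjusted by the Benjamini-Hochberg method over all tested features, with 0.05 as the threshold. Estimated library totals were 31655587 to 34376074 reads in C2S, 30367446 to 38595137 in OM and 29446408 to 33692722 in PM. The first principal component of the tested genes held 71.0% of the variance and the second 10.9%. Correlation across genes, which are not independent replicates, was 0.988 to 0.995 between libraries of a group and 0.942 to 0.945 between C2S and PM libraries. Of 18 macrophage and osteoclast markers listed, 16 had a row and 4 were tested, and the summed level of the list was 39.6 to 46.0 FPKM in C2S, 28.0 to 33.9 in OM and 19.3 to 21.5 in PM libraries. Much of it was Cd14, at 35.9, 35.1 and 41.2 FPKM in C2S libraries, 28.5, 24.1 and 29.5 FPKM in OM libraries and 10.4, 12.3 and 11.7 FPKM in PM libraries. Of the 4 tested markers, 2 rose and 2 fell against PM, with Lyz2 at -1.70. The summed level therefore follows Cd14 and does not describe the list as a whole. The defining markers Ptprc, Itgam, Adgre1, C1qa and Csf1r reached at most 0.53 FPKM in any library, C1qa being listed at 0 in each, and the endothelial Cdh5 at most 0.017. The stem cell antigen Ly6a was at 988, 886 and 913 FPKM in C2S libraries and 646, 542 and 685 FPKM in PM libraries. Thy1, another surface marker of these cells, reached at most 1.2 FPKM. Of the 14 tested genes in the list of such markers, 4 rose and 8 fell against PM, with a median log2 difference of -0.28. Over all tested genes 27.6% were higher and 28.4% lower. In bulk RNA, fewer cells of a type and less RNA per cell cannot be told apart.

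C2S differed from PM in 7311 of the 13049 tested genes (56%), 3605 of them higher (27.6%) and 3706 lower (28.4%), and most differences were small, with a median size of 0.41 on the log2 scale among genes that passed. In 8296 genes (63.6%) the C2S and PM libraries did not overlap. The non-coding RNA gene Rn7sk made up 28.8% to 36.1% of all FPKM in each library. With it left out and the rest rescaled, 2686 genes were higher and 4338 lower, with the median of all genes moving to -0.08, and the direction of small differences depends on the scaling. At a change of at least 2-fold, 863 genes passed (6.61%), of which 505 were higher (3.87%) and 358 lower (2.74%). Here and below, 2-fold for linear genes means a difference of at least 1 in size on the log2(FPKM + 1) scale. At the edge of that threshold Edn1 (1.00) lay just inside among the higher genes and Actg1 among the lower ones, and Brcc3 and Gm35037 lay just outside. C2S against OM passed in 2877 genes (22%), with 10.6% higher and 11.5% lower, and OM against PM in 7151 (54.8%), with 27.1% higher and 27.7% lower. The comparisons share libraries, so their values are set side by side without a test of their overlap.

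To place OM, each of the 863 genes was given a position, the distance from PM to OM as a share of the distance from PM to C2S on the log2 scale, with 0 at the PM level and 1 at the C2S level. The position uses the measured values of all 3 groups, so the classes are a description. OM lay near C2S (at or within 0.25 of the C2S level) for 297 higher and 290 lower genes, between the groups (0.25 to below 0.75) for 153 higher and 53 lower genes, near PM (below 0.25) for 17 higher and 6 lower genes, and further out than C2S for 38 higher and 9 lower genes. As a share, OM lay near C2S for 81.0% of the genes lower in C2S and for 58.8% of those higher, and between for 14.8% of the lower and 30.3% of the higher ones. Among genes with OM near PM, 14 of 17 higher and 6 of 6 lower also passed in C2S against OM in the same direction. Among those between, 102 of 153 and 43 of 53 did. The definition of both classes sets C2S apart from OM in that direction, so nothing is read from these counts. Over all tested genes, 10.6% were higher and 11.5% lower in C2S than in OM. The number near PM that passed in both comparisons was 20, and it became 49 with OM replicate 3 left out and 47 with a pseudocount of 0.1.

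**Figure D1:**
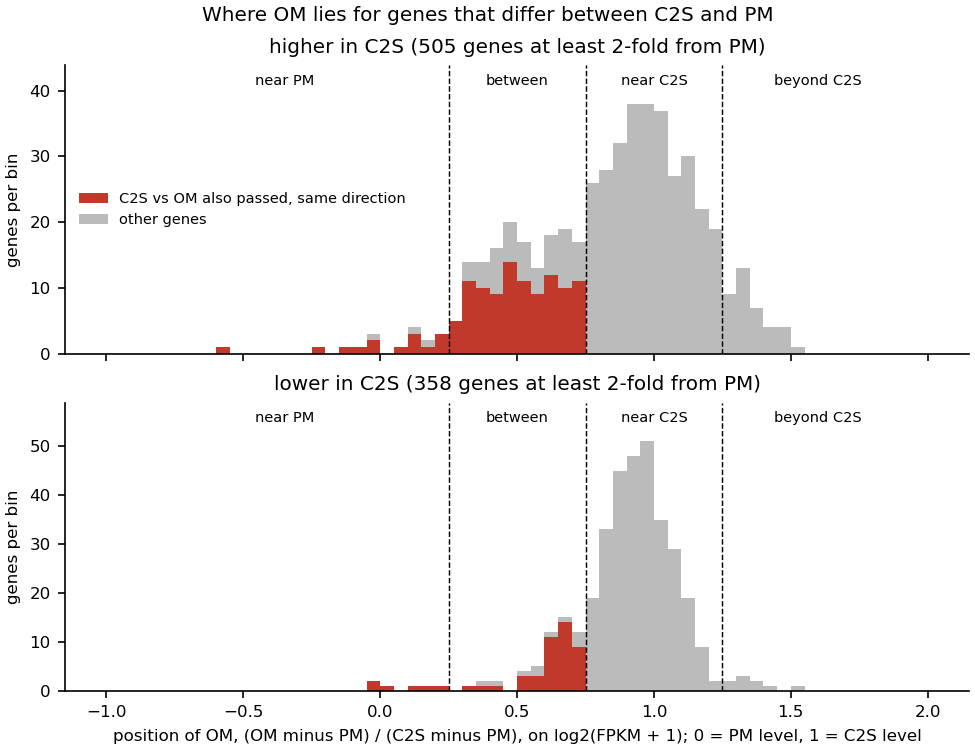
Position of the OM mean for the 863 genes that differed at least 2-fold between C2S and PM (x axis, share of the PM to C2S distance on the log2 scale; y axis, number of genes), drawn separately for the 505 genes higher and the 358 genes lower in C2S. Red marks genes that also passed in C2S against OM in the same direction, counted for the near PM and between classes. The lower genes pile up around the C2S level, while the higher genes spread further down towards the PM level.

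The class with OM near PM held 6 genes that were lower in C2S. Fos, a transcription factor of the AP-1 complex and an immediate-early gene (chr12:85473890-85477273, plus strand, GRCm38), was at 52.0, 48.3 and 51.7 FPKM in C2S libraries, 172, 236 and 266 FPKM in OM libraries and 217, 237 and 225 FPKM in PM libraries. Every C2S library lay below every OM and PM library, and the OM and PM libraries overlapped. The log2 difference of C2S from PM was -2.14 ± 0.13 (adjusted p = 1.3e-06) and that from OM -2.10 (adjusted p = 5.4e-05). Its relative Fosb, another AP-1 subunit, had 11.9, 9.86 and 11.0 FPKM in C2S libraries, 29.7, 43.3 and 42.5 FPKM in OM libraries and 50.6, 48.7 and 35.5 FPKM in PM libraries (C2S against PM -1.93 ± 0.17, adjusted p = 1.2e-05). The C2S libraries were again apart from both other groups. Jund, the third AP-1 subunit of the class, was at 4.20, 4.53 and 4.48 FPKM in C2S libraries and 9.23, 13.1 and 11.1 FPKM in PM libraries, with 8.67, 9.17 and 17.2 FPKM in OM libraries (-1.16 ± 0.22, adjusted p = 0.0017).

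Hes1, the transcriptional repressor downstream of Notch, had 3.42, 3.37 and 4.82 FPKM in C2S libraries, 9.17, 13.6 and 18.2 FPKM in OM libraries and 13.4, 20.2 and 20.3 FPKM in PM libraries, a log2 difference from PM of -1.95 ± 0.24 (adjusted p = 0.00011). Socs3, the feedback inhibitor of JAK and STAT signalling, was at 12.2, 12.7 and 13.1 FPKM in C2S libraries, 21.6, 29.7 and 49.3 FPKM in OM libraries and 30.5, 41.3 and 46.3 FPKM in PM libraries (-1.54 ± 0.26, adjusted p = 0.00077). Ppp1r15a, a phosphatase subunit that restores translation after stress, was at 22.0, 21.2 and 22.8 FPKM in C2S libraries, 45.4, 65.1 and 76.8 FPKM in OM libraries and 48.9, 61.7 and 66.7 FPKM in PM libraries (-1.37 ± 0.18, adjusted p = 0.00015). For all 3 genes the C2S libraries lay close together and below every other library, while OM and PM libraries each spread widely and overlapped.

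The promoters of a gene from each side of this pattern are shown, the 250 bases before the start of Fos and of Mmp3, a matrix protease that was higher in C2S, from the RefSeq table of GRCm38.p6, to show the motifs they hold. They lie at chr12:85473640-85473889 and chr9:7445572-7445821, both on the plus strand. Capitals mark a match on either strand to TGACGT (the core of the cyclic AMP response element) in Fos and to TGANTCA (the AP-1 site) in Mmp3.
Fos: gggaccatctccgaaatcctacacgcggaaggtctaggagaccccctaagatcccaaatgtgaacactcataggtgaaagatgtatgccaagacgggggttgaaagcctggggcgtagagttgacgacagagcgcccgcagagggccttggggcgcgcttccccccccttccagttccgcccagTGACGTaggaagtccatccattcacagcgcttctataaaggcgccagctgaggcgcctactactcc
Mmp3: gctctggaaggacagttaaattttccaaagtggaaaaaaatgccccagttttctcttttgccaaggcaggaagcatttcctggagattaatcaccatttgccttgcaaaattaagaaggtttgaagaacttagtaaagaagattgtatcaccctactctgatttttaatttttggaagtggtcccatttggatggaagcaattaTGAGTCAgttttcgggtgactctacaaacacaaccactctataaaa
The Fos match began 66 bases before the start and the Mmp3 match 46 bases before it. Of 32851 promoters of this length, 6.47% held TGACGT and 6.75% held TGANTCA. The Fosb promoter window held neither. The window of Dusp6, a gene given below, was searched for an ETS core motif and held no match, beside 2.88% of promoters that did.

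The class also held 17 genes that were higher in C2S. Among them, Ccl2, the chemokine that recruits monocytes, was at 175.5, 154.5 and 190.2 FPKM in C2S libraries, 60.2, 50.9 and 56.3 FPKM in OM libraries and 41.5, 48.9 and 45.8 FPKM in PM libraries. All C2S libraries were above all others, by 1.91 ± 0.09 against PM (adjusted p = 2.5e-07) and 1.62 against OM (adjusted p = 2.9e-05). Cd300lb, an activating receptor known from myeloid cells, had 5.54, 6.18 and 6.62 FPKM in C2S libraries, 0.958, 1.04 and 0.979 FPKM in OM libraries and 1.65, 1.56 and 1.42 FPKM in PM libraries, so that OM lay below PM (C2S against PM 1.48 ± 0.07, adjusted p = 2.8e-07).

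Itga2, the alpha chain of a collagen-binding integrin, was at 3.23, 3.43 and 3.97 FPKM in C2S libraries, 1.28, 1.30 and 0.951 FPKM in OM libraries and 1.10, 1.11 and 0.951 FPKM in PM libraries (1.14 ± 0.09, adjusted p = 7.6e-06). Mmp3, stromelysin, was at 3.17, 2.98 and 3.17 FPKM in C2S libraries, 1.05, 0.974 and 0.929 FPKM in OM libraries and 0.932, 1.26 and 0.845 FPKM in PM libraries (1.03 ± 0.09, adjusted p = 9.7e-06, and 1.05 against OM, adjusted p = 0.00017). In both genes the OM and PM libraries overlapped and the C2S libraries were apart, at levels that stayed low. Dab2, an endocytic adaptor that binds integrins and lipoprotein receptors, had 29.7, 32.9 and 30.5 FPKM in C2S libraries, 17.0, 16.9 and 14.7 FPKM in OM libraries and 16.6, 14.8 and 13.2 FPKM in PM libraries (1.02 ± 0.08). Nipal1, a membrane protein of a magnesium transporter family, was at 22.2, 22.7 and 23.0 FPKM in C2S libraries, 12.7, 12.4 and 10.8 FPKM in OM libraries and 10.2, 10.3 and 8.66 FPKM in PM libraries (1.14 ± 0.08), and the membrane protein gene Tmem200a differed by 1.15 ± 0.07. Of the 20 genes of the class that also passed against OM, 14 were protein coding, and among the rest were the mitochondrial tRNA genes mt-Tm (1.10) and mt-Tw (1.02). Gm10800, at 6.37, 13.1 and 12.1 FPKM in C2S libraries and 5.08, 2.42 and 6.56 FPKM in PM libraries (1.04 ± 0.31, adjusted p = 0.019), belongs to a multi-copy sequence and its value is uncertain, and its C2S and PM libraries overlapped.

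**Figure D2:**
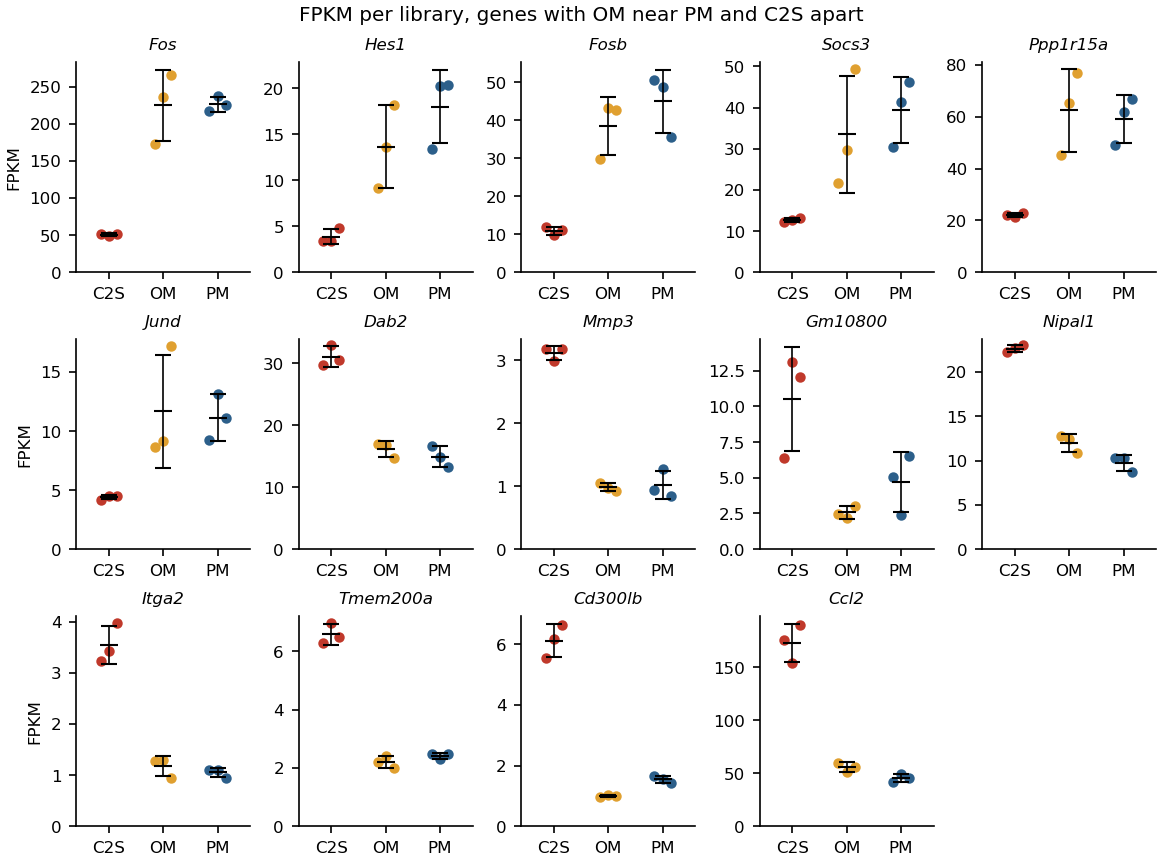
FPKM per library (y axis) of the 14 protein-coding genes with OM near PM that passed in C2S against PM and in C2S against OM, with C2S, OM and PM libraries side by side and bars for the mean ± SD of 3 libraries. For Fos, Fosb, Hes1, Socs3, Ppp1r15a and Jund the C2S points lie below the rest, and for genes such as Ccl2, Cd300lb and Mmp3 they lie above.

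Among genes for which OM lay between PM and C2S, those with the largest rise in C2S included Ifi208, of the HIN200 family of DNA sensors, with 20.3, 16.0 and 20.3 FPKM in C2S libraries, 6.97, 6.48 and 5.05 FPKM in OM libraries and 0.611, 0.524 and 0.249 FPKM in PM libraries (3.77 ± 0.14, adjusted p = 4.4e-08). The 3 groups did not overlap, in the order C2S, OM, PM. HIN200 genes are close paralogs, so reads may be shared between them. Spp1, which encodes osteopontin, an acidic phosphoprotein of bone matrix, was at 158, 167 and 211 FPKM in C2S libraries, 101, 77.5 and 70.5 FPKM in OM libraries and 16.7, 20.6 and 12.6 FPKM in PM libraries (3.36 ± 0.19, adjusted p = 6.7e-07; 1.11 against OM, adjusted p = 0.0043). It showed the same order with no overlap.

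Hmga2, a chromatin architectural protein of undifferentiated and growing cells, stood at 124, 134 and 129 FPKM in C2S libraries, 47.9, 51.6 and 42.4 FPKM in OM libraries and 18.3, 17.6 and 13.6 FPKM in PM libraries (2.90 ± 0.11, adjusted p = 4.7e-08; 1.43 against OM, adjusted p = 0.00011). Its relative Hmga1 was at 83.3, 89.4 and 86.3 FPKM in C2S libraries, 55.8, 55.0 and 47.8 FPKM in OM libraries and 15.1, 16.2 and 12.0 FPKM in PM libraries (2.51 ± 0.10); Hmga1b, a near-identical copy, gave 2.56, and the pair cannot be counted apart. All 3 genes were stepwise, with no overlap between groups. Tnfaip2, a gene induced by TNF, was at 8.16, 8.56 and 8.35 FPKM in C2S libraries, 2.52, 2.17 and 1.99 FPKM in OM libraries and 0.863, 0.677 and 0.495 FPKM in PM libraries (2.48 ± 0.09). Fosl1, the AP-1 subunit Fra-1, whose gene is a late target of ERK, had 15.6, 17.8 and 14.2 FPKM in C2S libraries, 4.59, 5.02 and 4.88 FPKM in OM libraries and 2.93, 2.10 and 2.06 FPKM in PM libraries (2.33 ± 0.11, adjusted p = 2.1e-07; 1.53 against OM, adjusted p = 9.4e-05). Fosl1 was thus higher in the libraries in which Fos and Fosb were lower.

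Pparg, the nuclear receptor that drives fat cell formation, was at 14.6, 15.7 and 15.1 FPKM in C2S libraries, 9.62, 8.76 and 8.21 FPKM in OM libraries and 2.31, 2.03 and 2.04 FPKM in PM libraries (2.37 ± 0.06, adjusted p = 6.4e-09; 0.71 against OM, adjusted p = 0.00029). Bcl2l1, which encodes the survival protein Bcl-xL, differed from PM by 2.07 ± 0.05, and Tm4sf1, a tetraspanin-like protein of migrating cells, by 2.22 ± 0.06. Ereg, the epidermal growth factor receptor ligand epiregulin, was at 34.0, 32.4 and 34.0 FPKM in C2S libraries, 15.8, 16.1 and 15.8 FPKM in OM libraries and 7.87, 8.08 and 7.12 FPKM in PM libraries (1.99 ± 0.05, adjusted p = 3.8e-09; 1.03 against OM, adjusted p = 1.6e-05). Its groups were separated by far more than the spread within any of them. Tlr4, the receptor for bacterial lipopolysaccharide (1.68 ± 0.04), and the heparan sulfate proteoglycan Sdc4 (1.56 ± 0.06) took the same order.

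Genes of microRNA hairpins or hosts belonged to this class as well, and the mature sequences they encode are shown for what they share. MicroRNAs repress messages that pair with their seed. The sequences are from RefSeq (GRCm38.p6), at chrX:19146307-19146329 (minus strand) for mmu-miR-221-3p, chrX:19146901-19146923 (minus strand) for mmu-miR-222-3p, chr10:120448052-120448073 (minus strand) for mmu-miR-763 and chr14:115043684-115043706 (plus strand) for mmu-miR-17-5p, and capitals mark the seed, bases 2 to 8.
mmu-miR-221-3p: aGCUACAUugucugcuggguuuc
mmu-miR-222-3p: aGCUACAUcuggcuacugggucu
mmu-miR-763: cCAGCUGGgaagaaccaguggc
mmu-miR-17-5p: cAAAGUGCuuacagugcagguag
The first pair share the seed GCUACAU. Mir221 was at 94.3, 79.9 and 93.4 FPKM in C2S libraries, 47.5, 41.5 and 61.5 FPKM in OM libraries and 18.9, 18.4 and 31.3 FPKM in PM libraries (1.96 ± 0.20, adjusted p = 4.0e-05). Its neighbour Mir222 was at 30.4, 22.9 and 25.6 FPKM in C2S libraries, 10.9, 14.4 and 12.0 FPKM in OM libraries and 13.3, 7.49 and 8.56 FPKM in PM libraries (1.37 ± 0.19, adjusted p = 0.00023), where OM and PM overlapped. Mir763, which lies within the span of Hmga2, was at 9.18, 11.4 and 10.5 FPKM in C2S libraries, 4.18, 4.51 and 1.91 FPKM in OM libraries and 1.248, 1.232 and 0.845 FPKM in PM libraries (2.43 ± 0.22, adjusted p = 1.5e-05). Reads over Mir763 cannot be told apart from those of unspliced Hmga2. Mir17hg, the host transcript of the miR-17 cluster, differed by 1.38 ± 0.12. These levels are of reads over the hairpin or host genes, and mature microRNAs were not measured.

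In the other direction, 43 genes fell in C2S with OM between and passed against OM. Cyr61, a secreted matricellular integrin ligand, was at 144.8, 139.6 and 145.0 FPKM in C2S libraries, 190.8, 246.8 and 210.2 FPKM in OM libraries and 503.9, 520.6 and 484.2 FPKM in PM libraries (-1.81 ± 0.08, adjusted p = 1.9e-07; -0.58 against OM, adjusted p = 0.002). Ctgf, the gene of a related matricellular protein, went the other way, with 110.4, 110.0 and 124.0 FPKM in C2S libraries, 82.7, 90.7 and 63.5 FPKM in OM libraries and 21.8, 23.0 and 19.1 FPKM in PM libraries (2.38 ± 0.12, adjusted p = 4.2e-07). Neither gene had an overlap between C2S and PM. Npr3, the natriuretic peptide clearance receptor, had 14.7, 13.2 and 12.0 FPKM in C2S libraries, 21.6, 21.9 and 20.3 FPKM in OM libraries and 51.2, 51.4 and 50.2 FPKM in PM libraries (-1.86 ± 0.06). The membrane protease Mmp16 fell by 1.82 ± 0.09 on the log2 scale. Dbp and Tef, transcription factors of the circadian output, fell together: Dbp was at 2.78, 2.70 and 2.41 FPKM in C2S libraries, 4.20, 4.16 and 4.52 FPKM in OM libraries and 8.40, 8.36 and 8.83 FPKM in PM libraries (-1.39 ± 0.06), and Tef differed by -1.22 ± 0.05. Per1, a clock gene that glucocorticoids induce, rose by 1.19.

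The ERK feedback list held 19 genes, of which 18 were tested, and 16 rose in C2S against PM, 1 fell and 1 did not pass, beside the background of 27.6% higher and 28.4% lower over all tested genes. The median log2 difference was 1.28, against -0.0017 over all genes. Against OM, 16 were higher and none lower in C2S, beside 10.6% higher and 11.5% lower over all tested genes. The list was chosen with earlier results of these data known, so its counts are a description. Besides feedback inhibitors it holds genes such as Hmga2, Fosl1, Ccnd1 and Epha2. Dusp6, the phosphatase that inactivates ERK, was at 72.7, 69.5 and 68.1 FPKM in C2S libraries, 31.8, 32.5 and 32.2 FPKM in OM libraries and 14.3, 16.0 and 13.7 FPKM in PM libraries (2.18 ± 0.05; 1.10 against OM, adjusted p = 1.6e-05). The step from PM to OM and that from OM to C2S were each far wider than the spread within a group. Spry4, a Sprouty inhibitor of receptor tyrosine kinase signals, had 7.44, 9.04 and 7.68 FPKM in C2S libraries, 2.27, 2.37 and 2.07 FPKM in OM libraries and 0.993, 0.935 and 0.884 FPKM in PM libraries (2.22). Dusp4, a nuclear MAP kinase phosphatase, was at 24.4, 25.1 and 24.7 FPKM in C2S libraries, 10.1, 10.5 and 8.69 FPKM in OM libraries and 5.42, 6.63 and 3.95 FPKM in PM libraries (2.05).

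The ETS transcription factors that ERK induces rose as a trio, Etv4 by 1.73 ± 0.14, Etv1 by 1.45 ± 0.09 and Etv5 by 1.28 ± 0.08. The receptor Epha2 rose by 1.29 ± 0.09, and the cyclin Ccnd1 was at 104, 108 and 107 FPKM in C2S libraries, 70.6, 75.6 and 64.7 FPKM in OM libraries and 26.4, 30.5 and 22.1 FPKM in PM libraries (1.98 ± 0.10). Smaller rises were seen for the phosphatases Dusp5 (0.75) and Dusp7 (0.48), for Phlda1 (0.67), and for the inhibitors Spred2 (0.63), Spred1 (0.37) and Spry2 (0.32). Spry2 was at 156, 149 and 151 FPKM in C2S libraries, 103, 114 and 111 FPKM in OM libraries and 115, 125 and 123 FPKM in PM libraries, so OM lay below PM. Ier3 fell by 0.39 ± 0.14, and Spred3 differed by 0.13 ± 0.09 without passing. The list also holds Hmga2 and Fosl1, given above. All 10 members that rose at least 2-fold also passed against OM.

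**Figure D3:**
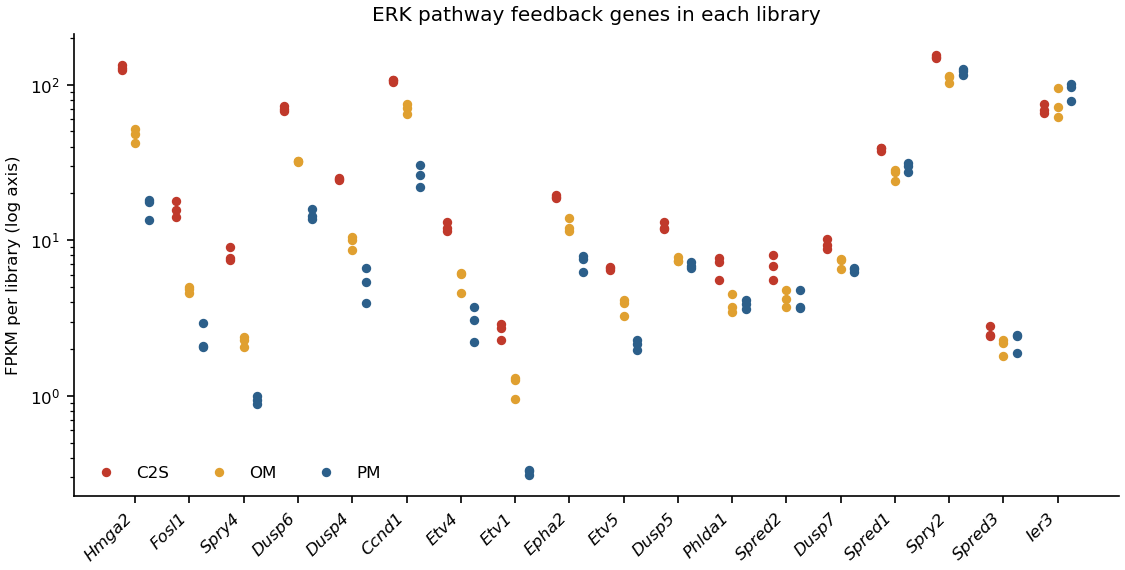
FPKM per library on a log axis (y axis) of the 18 tested ERK feedback genes (x axis), with C2S, OM and PM libraries side by side. The C2S points lie above the PM points for most genes, with the OM points between them for genes such as Dusp6, Spry4 and Dusp4, and no such separation for Spred3.

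In the list of AP-1 and immediate-early genes, 7 of the 22 tested rose, 11 fell and 4 did not pass, with a median of -0.38, beside 27.6% higher and 28.4% lower over all tested genes. Against OM, Fosl1 and Egr3 were higher and 11 were lower, beside 10.6% higher and 11.5% lower over all tested genes. Jun, the central AP-1 subunit, was at 31.5, 32.8 and 33.5 FPKM in C2S libraries, 42.8, 52.8 and 61.8 FPKM in OM libraries and 59.9, 60.9 and 53.2 FPKM in PM libraries (-0.81 ± 0.11, adjusted p = 0.00027). Fosl2, in contrast to Fos, was near the C2S level in OM as well, with 21.0, 22.2 and 21.3 FPKM in C2S libraries, 22.0, 27.1 and 25.6 FPKM in OM libraries and 81.6, 83.9 and 77.2 FPKM in PM libraries (-1.86 ± 0.07). The anti-proliferative gene Btg2 (-0.83) and the stress gene Atf3 (-0.94) fell, and the growth regulator Myc rose by 0.99. Egr1, an ERK target of the early response, did not pass, with 19.3, 22.1 and 19.6 FPKM in C2S libraries, 23.4, 29.3 and 27.8 FPKM in OM libraries and 26.2, 21.8 and 19.0 FPKM in PM libraries (-0.12 ± 0.12, adjusted p = 0.42). Neither did Junb (-0.44 ± 0.26), Ier2 (-0.08 ± 0.21) or Zfp36 (-0.18 ± 0.14), of which Junb ranged from 121 to 193 FPKM among PM libraries. OM replicate 1 had the lowest value of its group for Fos, Fosb, Hes1, Socs3, Ppp1r15a, Jund, Jun, Junb, Ier2, Egr1 and Zfp36. PM replicate 1 had the lowest of its group for Fos, Hes1, Socs3, Ppp1r15a, Jund, Junb, Ier2 and Zfp36. Without OM replicate 1, 19 genes of this list passed in C2S against PM and 20 genes had OM near PM and passed in both comparisons, and without PM replicate 1 these were 18 and 19, against 18 and 20 with all libraries.

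Of 20 tested matrix proteases and their inhibitors, 10 rose and 8 fell, beside 27.6% higher and 28.4% lower over all tested genes. The median of the list was 0.35. Plau, the urokinase plasminogen activator, was at 120.8, 111.7 and 116.0 FPKM in C2S libraries, 56.4, 62.9 and 60.2 FPKM in OM libraries and 45.9, 48.6 and 40.7 FPKM in PM libraries (1.35 ± 0.07, adjusted p = 3.7e-07; 0.95 against OM). Its receptor Plaur had 17.7, 17.1 and 18.2 FPKM in C2S libraries, 9.89, 9.57 and 8.42 FPKM in OM libraries and 8.41, 9.80 and 7.12 FPKM in PM libraries (0.99 ± 0.10). For Plaur, OM and PM libraries overlapped and C2S stood above both. Mmp19 was stepwise, with 85.0, 86.3 and 95.4 FPKM in C2S libraries, 47.4, 48.5 and 49.8 FPKM in OM libraries and 26.3, 26.5 and 26.5 FPKM in PM libraries (1.71 ± 0.05). The aggrecan-cleaving Adamts1 (2.45) and Adamts5 (1.63) rose too, but both were lower in C2S than in OM (-0.31 and -0.66). Mmp11 (-1.34) and the inhibitor Timp3 (-1.33) fell. The integrin chain Itga5, a fibronectin receptor subunit, rose by 1.12 ± 0.12.

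Of 15 tested bone matrix and mineralization genes, 8 rose and 5 fell, beside 27.6% higher and 28.4% lower over all tested genes. Alpl, the alkaline phosphatase that frees phosphate for mineral, was at 14.2, 15.6 and 15.2 FPKM in C2S libraries, 9.97, 10.5 and 9.01 FPKM in OM libraries and 7.28, 6.81 and 6.97 FPKM in PM libraries. Its groups were ordered C2S, OM, PM without overlap. The log2 difference was 1.00 ± 0.06 from PM (adjusted p = 1.2e-06) and 0.57 from OM (adjusted p = 0.00054). The difference from PM lay just under the threshold of 1 on the log2(FPKM + 1) scale. Mgp, matrix Gla protein, an inhibitor of mineralization, was the most abundant member that rose, at 1401, 1409 and 1591 FPKM in C2S libraries, 967, 817 and 924 FPKM in OM libraries and 617, 616 and 631 FPKM in PM libraries (1.24 ± 0.08). Ank, the pyrophosphate exporter, was at 115.0, 126.4 and 127.4 FPKM in C2S libraries, 75.0, 80.9 and 70.9 FPKM in OM libraries and 73.9, 71.2 and 66.7 FPKM in PM libraries (0.79 ± 0.06), so its OM and PM libraries overlapped. Col1a1, the main collagen chain of bone, fell to 23.1, 30.5 and 23.7 FPKM in C2S libraries and stood at 29.1, 33.5 and 27.1 FPKM in OM libraries, against 107, 98.2 and 90.7 FPKM in PM libraries (-1.90 ± 0.11). Sparc (osteonectin, -1.02 ± 0.05) and Omd (osteomodulin, -1.44) fell as well. The late osteoblast markers Ibsp, Bglap, Bglap2 and Dmp1 reached at most 0.13 FPKM and Sp7 0.034 FPKM in any library, so they were not tested.

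Among osteoblast transcription factors and signals, 5 of 10 rose and 4 fell, beside 27.6% higher and 28.4% lower over all tested genes. With Rn7sk left out, 2 rose and 4 fell. Runx2, the master regulator of osteoblasts, had 5.83, 6.44 and 5.41 FPKM in C2S libraries, 4.73, 4.98 and 4.01 FPKM in OM libraries and 5.41, 4.32 and 3.63 FPKM in PM libraries, which touch the C2S range (0.35 ± 0.12, adjusted p = 0.033). Twist2, a repressor of osteoblast genes, was at 16.2, 16.2 and 16.3 FPKM in C2S libraries, 11.9, 12.8 and 12.0 FPKM in OM libraries and 3.17, 3.20 and 2.99 FPKM in PM libraries (2.06 ± 0.04, adjusted p = 1.7e-09). Bmp4, a bone morphogenetic protein, fell by 2.25 ± 0.08. Of 22 fibrillar collagen and collagen processing genes, 14 fell and 5 rose, with Plod2, a collagen lysyl hydroxylase, at -2.89 ± 0.06 and Col3a1 at -2.24 ± 0.07, and with the crosslinking oxidase Loxl4 at 1.26 ± 0.08. Fat cell genes moved both ways, with 6 of 12 higher and 3 lower: the fatty acid carrier Fabp4 was at 16.6, 16.7 and 18.7 FPKM in C2S libraries, 16.9, 14.5 and 15.7 FPKM in OM libraries and 0.390, 0.531 and 0.376 FPKM in PM libraries (3.68 ± 0.07). Lipoprotein lipase, Lpl, fell (adjusted p = 3.2e-07). Cfd and Plin1, markers of mature adipocytes, reached at most 0.037 FPKM.

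The widest differences from PM were largely shared by OM. Sult1a1, a phenol sulfotransferase, was at 73.2, 65.3 and 68.2 FPKM in C2S libraries, 78.3, 66.7 and 75.9 FPKM in OM libraries and 0.284, 0.194 and 0.197 FPKM in PM libraries (5.83 ± 0.07, adjusted p = 8.8e-11). Hp, haptoglobin, had 58.3, 53.2 and 58.9 FPKM in C2S libraries, 46.0, 42.4 and 48.7 FPKM in OM libraries and 0.646, 0.748 and 0.704 FPKM in PM libraries (5.09 ± 0.06). Fkbp5, the glucocorticoid receptor chaperone, was at 212, 206 and 203 FPKM in C2S libraries, 211, 217 and 226 FPKM in OM libraries and 7.22, 7.31 and 6.77 FPKM in PM libraries (4.68 ± 0.04). C2S and OM overlapped for Sult1a1 and Fkbp5, and PM was far below. Of the 28 genes in the glucocorticoid list, 23 rose and 3 fell against PM, beside 27.6% higher and 28.4% lower over all tested genes. The median of the list was 2.45. Against OM, 4 were higher and 10 lower, beside 10.6% higher and 11.5% lower over all tested genes. Tsc22d3, which encodes the glucocorticoid-induced leucine zipper, was at 387, 371 and 377 FPKM in C2S libraries, 529, 509 and 490 FPKM in OM libraries and 22.1, 22.0 and 25.3 FPKM in PM libraries (3.98; -0.43 against OM). Igfbp3, an IGF-binding protein, was likewise highest in OM, with 39.5, 39.4 and 35.9 FPKM in C2S libraries, 60.0, 60.9 and 57.0 FPKM in OM libraries and 1.58, 1.84 and 2.00 FPKM in PM libraries (3.81; -0.62 against OM, adjusted p = 0.00047). The list also holds the gene of the glucocorticoid receptor itself, Nr3c1, which fell by 1.17.

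Metallothioneins, small cysteine-rich proteins that bind zinc and copper, are induced by metal and by glucocorticoid, and their promoters are shown for the metal response element. The 250 bases before the start are from RefSeq (GRCm38.p6), chr8:94172368-94172617 for Mt2 and chr8:94178839-94179088 for Mt1, plus strand, with capitals for matches on either strand to TGCACNC or TGCGCNC.
Mt2: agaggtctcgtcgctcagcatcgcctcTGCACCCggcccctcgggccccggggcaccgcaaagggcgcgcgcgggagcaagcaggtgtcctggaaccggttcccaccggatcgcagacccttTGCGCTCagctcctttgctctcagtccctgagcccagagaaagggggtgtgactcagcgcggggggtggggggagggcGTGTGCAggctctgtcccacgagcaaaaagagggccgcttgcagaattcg
Mt1: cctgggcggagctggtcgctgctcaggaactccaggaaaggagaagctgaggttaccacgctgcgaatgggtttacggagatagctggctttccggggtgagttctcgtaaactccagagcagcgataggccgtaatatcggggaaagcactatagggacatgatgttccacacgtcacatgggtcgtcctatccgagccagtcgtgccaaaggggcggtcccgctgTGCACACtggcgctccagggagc
The Mt2 window held 3 matches, from 223 to 50 bases before the start, the Mt1 window 1 match at 23 bases, and 21.4% of all promoters held at least 1. These distances are from the RefSeq start. In GENCODE M21, Mt2 starts at chr8:94172664, past the end of its window, and Mt1 at chr8:94179082, inside its window. Bases outside the windows were not searched. Mt2 was at 1354, 1439.7 and 1405 FPKM in C2S libraries, 965, 912 and 992 FPKM in OM libraries and 47.7, 39.3 and 40.0 FPKM in PM libraries (5.02 ± 0.08, adjusted p = 2.8e-10; 0.55 against OM, adjusted p = 0.0017). Mt1 had 700.4, 667 and 650.0 FPKM in C2S libraries, 503, 505 and 643 FPKM in OM libraries and 57.3, 54.4 and 60.1 FPKM in PM libraries (3.53 ± 0.09; 0.30 against OM, adjusted p = 0.048). In both genes every C2S library was above every OM library, though by little for Mt1. Mt4, another member, was low, with 1.60, 1.27 and 2.62 FPKM in C2S libraries, 0.630, 0.713 and 0.906 FPKM in OM libraries and at most 0.0743 FPKM in PM libraries (1.44 ± 0.16). Of the 17 tested metallothionein and zinc transport genes 4 rose and 8 fell, beside 27.6% higher and 28.4% lower over all tested genes. The zinc importers Slc39a8 (0.90) and Slc39a14 (0.56) were among those that rose, and Mtf1, the metal-sensing factor, differed by 0.14 without passing.

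Of 18 xenobiotic and sulfate conjugation enzymes, 14 rose and 2 fell, beside 27.6% higher and 28.4% lower over all tested genes. The median of the list was 0.75. Fmo2, a flavin monooxygenase, was at 20.1, 21.2 and 22.3 FPKM in C2S libraries, 12.7, 10.8 and 10.1 FPKM in OM libraries and 0.221, 0.124 and 0.175 FPKM in PM libraries (4.24 ± 0.08; 0.87 against OM, adjusted p = 0.00033). The 3 groups stood apart. They did not for Aldh1a1, the retinal dehydrogenase, which rose by 3.64 against PM and differed by -0.15 from OM without passing. Of 26 antioxidant genes, 9 rose and 4 fell, and with Rn7sk left out 6 rose and 7 fell; the ferritin chain Fth1 led with 1.44. Among other members, Gclc, which makes the glutathione precursor, rose by 0.40 (adjusted p = 0.00031), and Slc7a11, which imports cystine, differed by -0.47 (adjusted p = 0.0068). Heme oxygenase 1, Hmox1, was at 233, 228 and 215 FPKM in C2S libraries and 203, 211 and 209 FPKM in PM libraries (0.12 ± 0.04, adjusted p = 0.049). Nqo1 differed by -0.22 ± 0.06, and Gclm (0.19 ± 0.09) and Txnrd1 (0.06 ± 0.05) did not pass.

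Among the deepest falls, Ccl8, a chemokine for monocytes and lymphocytes, was at 1.53, 0.987 and 1.11 FPKM in C2S libraries, 0.764, 0.656 and 1.09 FPKM in OM libraries and 35.1, 36.1 and 48.8 FPKM in PM libraries (-4.20 ± 0.14). Scg2, secretogranin II, a protein of secretory granules, was at 38.9, 32.9 and 34.7 FPKM in C2S libraries, 47.4, 43.8 and 50.2 FPKM in OM libraries and 579, 633 and 657 FPKM in PM libraries (-4.10 ± 0.08, adjusted p = 8.1e-10; -0.40 against OM, adjusted p = 0.0074). The opioid peptide precursor Penk (-3.44), the synaptotagmin Syt13 (-3.79), the pyroglutamate-forming enzyme Qpct (-3.58) and the oxytocin receptor Oxtr (-3.20) fell with it, so that 5 of 9 tested neuropeptide and secretion genes fell and 3 rose. Of 17 tested Wnt genes 16 fell and none rose, and in OM against PM all 17 fell. For this list and the secretion genes, the share over all tested genes was 28.4% lower and 27.6% higher. In OM against PM it was 27.7% lower. Genes of both lists could enter the test through the PM libraries alone, so the counts of falls are a description. With a value of at least 1 required in all 9 libraries, 4 secretion and 12 Wnt genes passed, against 8 and 16. Dkk2, a Wnt antagonist, was at 11.6, 10.5 and 11.0 FPKM in C2S libraries, 9.78, 9.34 and 8.99 FPKM in OM libraries and 126, 141 and 145 FPKM in PM libraries (-3.52 ± 0.06). The receptors Lrp6 (-1.83) and Fzd1 (-1.70) and the target gene Axin2 (-0.35 ± 0.08) fell as well. Igf1, the growth factor, was at 0.797, 0.921 and 0.774 FPKM in C2S libraries, 0.818, 0.830 and 0.749 FPKM in OM libraries and 15.8, 17.2 and 17.9 FPKM in PM libraries (-3.29 ± 0.06).

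The inflammatory list split, with 13 of 26 tested genes higher, 7 lower and 6 not passing, beside 27.6% higher and 28.4% lower over all tested genes. Besides Ccl2 and Tnfaip2, the neutrophil chemokine Cxcl5 (2.96) and the complement component C3 (2.12) rose, with OM at the C2S level, while Ptgs2, the inducible cyclooxygenase, fell by 1.52 ± 0.13. Il6 did not pass (-0.89 ± 0.36, adjusted p = 0.064), with 0.420, 0.342 and 0.418 FPKM in C2S libraries, 0.666, 1.83 and 4.24 FPKM in OM libraries and 0.870, 1.83 and 2.22 FPKM in PM libraries. Some genes were lower in OM than in either other group: Ccl7, a neighbour of Ccl2, was at 68.6, 60.5 and 72.3 FPKM in C2S libraries, 26.0, 25.3 and 25.8 FPKM in OM libraries and 105, 115 and 136 FPKM in PM libraries (-0.81 against PM; 1.35 against OM). Il1rl1, the interleukin 33 receptor, was at 48.5, 52.7 and 58.6 FPKM in C2S libraries, 19.8, 16.9 and 14.2 FPKM in OM libraries and 91.2, 95.2 and 88.6 FPKM in PM libraries (-0.78 against PM; 1.60 against OM). Both were thus between OM and PM in C2S, without overlap. Counted over all genes, 130 of the 445 genes at least 2-fold higher in OM than in PM (3.41% of those tested) were lower in C2S than in OM, and 50 of the 331 at least 2-fold lower in OM (2.54%) were higher in C2S than in OM, each passing. Over all tested genes 11.5% were lower and 10.6% higher in C2S than in OM. The genes were chosen with the same OM libraries, so these counts are a description and nothing is read from them. Of the 130 and 50 genes, 129 and 44 passed in C2S against PM.

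Of 30 DNA replication and mitosis genes, 26 rose and none fell, beside 27.6% higher and 28.4% lower over all tested genes. The median of the list was 0.67. In OM against PM 27 rose and none fell, beside 27.1% higher and 27.7% lower over all tested genes. Mki67, a marker of cycling cells, had 13.4, 15.0 and 14.3 FPKM in C2S libraries, 16.4, 15.5 and 10.6 FPKM in OM libraries and 7.30, 8.03 and 4.49 FPKM in PM libraries (1.03 ± 0.20, adjusted p = 0.0018). All C2S libraries were above all PM libraries, and C2S and OM overlapped. Of 16 contractile genes 14 fell and 2 rose, among them smooth muscle actin, Acta2, by 1.08 ± 0.07, with Ctgf and Ankrd1 (1.00 ± 0.06) the 2 that rose. Of 22 glycolysis and hypoxia genes 14 fell and 5 rose, with the pyruvate dehydrogenase kinase Pdk1 at -1.91 ± 0.07 and Vegfa at -1.17 ± 0.08, while hexokinase 2, Hk2, was at 14.9, 16.1 and 16.0 FPKM in C2S libraries, 8.61, 9.19 and 8.82 FPKM in OM libraries and 7.54, 8.20 and 6.41 FPKM in PM libraries (1.00 ± 0.08). Of the interferon and HIN200 list, 8 of 31 rose and 10 fell, shares near the 27.6% higher and 28.4% lower over all tested genes. Among those that rose were the HIN200 genes Ifi208, Ifi207 (3.42 ± 0.10), Ifi204 (1.13), Ifi211 (0.99), Ifi205 (0.58) and Ifi203 (0.52), while the interferon response genes Isg15 (-0.62) and Irf7 (-0.43) fell. Calcium entry and sensing genes gave 6 higher and 10 lower of 24, cholesterol synthesis 6 and 5 of 21 (4 and 6 with Rn7sk left out), the IGF axis 5 and 7 of 15 and stem cell surface markers 4 and 8 of 14. In the remaining marker lists few genes were tested: 2 of 4 macrophage and osteoclast markers rose and 2 fell, with Cd14 at 1.62 and Lyz2, whose reads may be shared with its copy Lyz1, at -1.70; 1 of 2 blood and endothelial markers rose (Tek, 0.96); and 2 of 3 chondrocyte genes rose and 1 fell, with Sox5 at 1.34 and Col2a1 and Acan at most 0.029 FPKM.

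**Figure D4:**
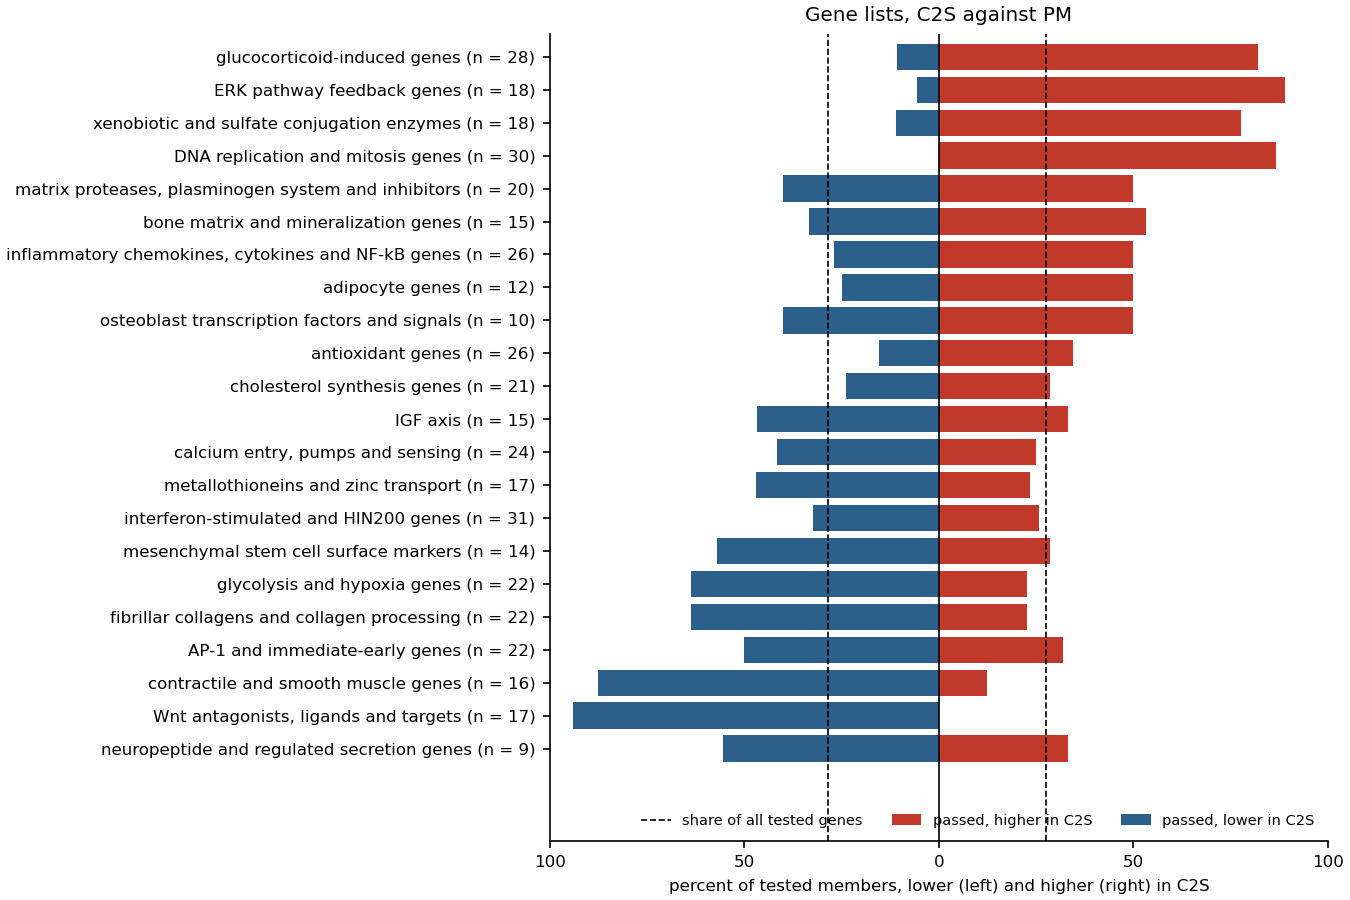
Percent of tested members (x axis) that were higher or lower in C2S than in PM, for the 22 lists with at least 5 tested members (y axis); dashed lines mark the 27.6% higher and 28.4% lower over all 13049 tested genes. The ERK feedback, glucocorticoid and replication lists lean towards higher, and the Wnt and contractile lists towards lower. All lists were chosen with earlier results of these data known.

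For circular RNAs, the values are RPM, a library's back-splice reads set to a common total, and reads are given here by taking the smallest value of a library as 2 reads. A circRNA without a value in a library was set to 0, which can mean no read, a single read, or a junction missed by the authors' callers. C2S libraries listed 2416, 2456 and 2361 circRNAs, OM libraries 2808, 2615 and 2651, and PM libraries 1974, 2182 and 2277, a difference between C2S and PM with p = 0.1 in an exact two-sided permutation test, the smallest that 3 against 3 libraries allow. Reads were 17905, 17934 and 16936 in C2S, 20769, 19123 and 19626 in OM and 13691, 14591 and 16123 in PM libraries, so the PM libraries were the shallowest, and the part of depth in the counts of listed circRNAs was not tested. Per 1000000 linear reads there were 521, 533 and 535 circRNA reads in C2S, 579.9, 495 and 646 in OM and 412, 433 and 548 in PM libraries (p = 0.4, exact permutation test).

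Between C2S and PM 48 of 2898 tested circRNAs passed (1.66%), 27 higher (0.932%) and 21 lower (0.725%), with a median of 89 reads in the 6 libraries against 11 for all tested. Among the lower ones, circ_10829, circ_10510 and circ_9825 were listed in PM libraries alone. They entered the test only through the group where they are high, so their calls are a description. No circRNA passed in C2S against OM by limma, and 45 (1.55%) passed in OM against PM. In C2S against OM, 151 of the 2898 tested had an unadjusted p under 0.05. That count is not corrected for the number tested, and nothing is read from it. By the authors' class 34 were exonic, 2 intronic and 12 intergenic, so that intergenic ones made up 25% of those that passed and 5.56% of those tested. The count was 23 to 52 when a library was left out, and 31, 23 and 29 without C2S replicate 1, 2 and 3, 29 without PM replicate 2 and 17 with the C2S and PM libraries alone.

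The back-splice junctions of 6 circRNAs are shown, because the junction is what tells the circle from the linear message. Each has 20 bases before the join in lower case and 20 after it in capitals, from the GENCODE M21 transcripts on GRCm38 (all of the minus strand). They are circ_1228 of Fkbp5 (chr17:28428352-28441053, exons 2 to 5), circ_1473 of Sox5 (chr6:144116444-144155223, exons 2 to 3), circ_113 of Hipk2 (chr6:38818230-38819313, exon 2), circ_1320 of Foxo3 (chr10:42196466-42197901, exon 3), circ_1560 of Dscam (chr16:97038898-97056765, exons 2 to 3) and circ_1220 of Tgfbr2 (chr9:116129816-116131713, exons 2 to 3).
circ_1228: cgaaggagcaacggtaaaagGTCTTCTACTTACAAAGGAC
circ_1473: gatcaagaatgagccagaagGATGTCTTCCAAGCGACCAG
circ_113: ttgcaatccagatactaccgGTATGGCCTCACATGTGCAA
circ_1320: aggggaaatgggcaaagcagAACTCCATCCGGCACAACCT
circ_1560: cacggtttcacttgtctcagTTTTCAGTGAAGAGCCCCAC
circ_1220: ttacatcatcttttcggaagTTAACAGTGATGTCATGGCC
By annotation the circles would be 529, 443, 1084, 1436, 465 and 360 bases long, in that order, if all exons between the ends are kept. In each case the ends given by the authors fell on annotated exon bounds.

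circ_1228, from the chaperone gene Fkbp5, had 49, 37 and 30 reads in C2S libraries, 50, 41 and 34 reads in OM libraries and was not listed in any PM library (adjusted p = 1.1e-07). Its host rose by 4.68 ± 0.04. With no reads listed in PM, no fold change is given for it. circ_1473, from the chondrogenic factor gene Sox5, had 23, 28 and 27 reads in C2S libraries, 32, 25 and 27 reads in OM libraries and 5, 5 and 5 reads in PM libraries (1.82 ± 0.21, adjusted p = 0.00026; host 1.34). circ_113, from the kinase gene Hipk2, had 37, 40 and 37 reads in C2S libraries, 48, 55 and 48 reads in OM libraries and 9, 11 and 13 reads in PM libraries (1.42 ± 0.16, adjusted p = 0.0003; host 1.79). Both were separated from PM in every library. circ_1320, from Foxo3, a transcription factor of stress resistance, had 12, 9 and 7 reads in C2S libraries, 10, 11 and 18 in OM libraries and 0, 2 and 0 in PM libraries (adjusted p = 0.015). Grik2, which encodes a kainate glutamate receptor subunit, gave 4 of the 27 that were higher, in 2 pairs whose spans overlap within the pair. Of these, circ_2440 had 32, 36 and 28 reads in C2S libraries, 37, 33 and 39 reads in OM libraries and 4, 5 and 0 reads in PM libraries (2.81 ± 0.40, adjusted p = 0.002; host 1.63). It did not pass at a pseudocount 10 times smaller (adjusted p = 0.092) or with the C2S and PM libraries alone (adjusted p = 0.099).

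Among the circRNAs that fell, circ_1560, from the cell adhesion gene Dscam, had 3, 0 and 4 reads in C2S libraries, 6, 4 and 6 reads in OM libraries and 19, 18 and 31 reads in PM libraries (-2.85 ± 0.40, adjusted p = 0.002; host -1.26). At a pseudocount 10 times smaller its difference was -4.25 and did not pass (adjusted p = 0.059). circ_1220, from the TGF-beta receptor gene Tgfbr2, had 13, 8 and 14 reads in C2S libraries, 14, 13 and 15 reads in OM libraries and 29, 28 and 32 reads in PM libraries (-1.48 ± 0.23, adjusted p = 0.0029; host -1.90). C2S and OM overlapped in both, and PM stood above them. Lrp6, the Wnt co-receptor, gave 2 circRNAs that fell, circ_256 by 0.90 ± 0.14 and circ_727 by 0.69 ± 0.15, beside a host difference of -1.83. Of the 36 with a tested host gene, from 31 hosts, the host passed in the same direction for 35. Among all tested genes, 27.6% passed as higher and 28.4% as lower. Reads of a circle may also count towards its host's linear level, and how far they did was not tested. The exception was circ_177 of Crebrf, with 40, 47 and 43 reads in C2S libraries and 22, 24 and 23 reads in PM libraries (0.62 ± 0.14), whose host differed by 0.11. The size could differ from that of the host: circ_174 of Ehbp1 had 13, 8 and 4 reads in C2S libraries and none in PM libraries, with a host difference of 0.28. circ_1983, the circRNA named in the title of the series, had 11, 6 and 7 reads in C2S libraries, 4, 3 and 6 reads in OM libraries and 3, 0 and 2 reads in PM libraries, and did not pass (1.43 ± 0.46, adjusted p = 0.171). Its host Tacc1 differed by 0.26 ± 0.06, and Gas7, a gene that the title also names, was at 29.1, 30.8 and 30.6 FPKM in C2S libraries, 26.7, 28.6 and 24.4 FPKM in OM libraries and 16.7, 15.5 and 14.4 FPKM in PM libraries (0.92 ± 0.07, adjusted p = 4.3e-06; 0.18 against OM, adjusted p = 0.09).

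**Figure D5:**
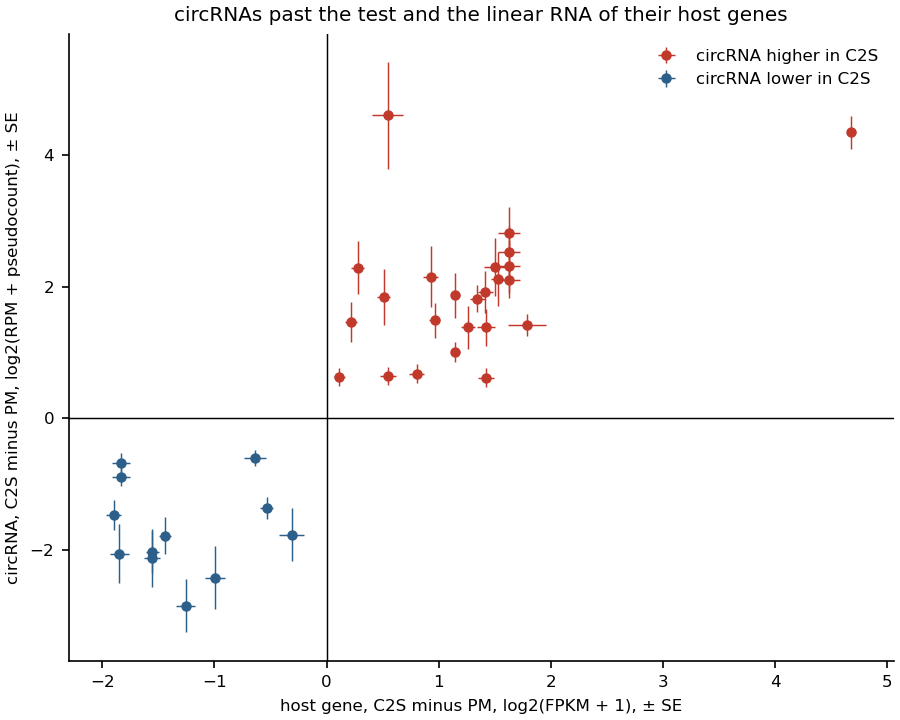
Log2 difference of C2S from PM of the host gene (x axis) and of its circRNA (y axis), with bars for the standard error, for the 36 circRNAs that passed and have a tested host. The points lie in the upper right and lower left quadrants, with the circRNA of Crebrf near a host difference of 0.11.

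Most of the 12 circRNAs classed as intergenic had ends in a pair of related neighbouring genes. By the GENCODE M21 annotation, 11 of the 12 (91.7%) had their ends in different genes of the same strand, against 72.7% of the 161 tested circRNAs of that class. The remaining one, circ_1164 (chr10:47474521-47475428), had neither end in a gene of its strand. It had 14, 17 and 18 reads in C2S libraries and 17, 22 and 30 in OM libraries, and was not listed in PM libraries (adjusted p = 6.2e-05). circ_469 ran from Sult1a1 to Gm6939 (chr7:126675049-126688685) and had 67, 87 and 73 reads in C2S libraries and 82, 67 and 68 reads in OM libraries, and was not listed in PM libraries (adjusted p = 4.1e-10), beside the rise of Sult1a1 given above. circ_950 ran from Abca8b to Abca8a, lipid transporter genes that rose by 1.98 and 1.82, with 12, 18 and 13 reads in C2S libraries, 16, 14 and 12 in OM libraries and 3, 0 and 4 in PM libraries (1.95 ± 0.41, adjusted p = 0.025). The 9 that fell joined Acat3 with Acat2 (circ_519 and circ_651), Clca3a2 with Clca3b (circ_2755), Serpina3h with Serpina3i (circ_2491), Pbld2 with Pbld1 (circ_5817), Lyz2 with Lyz1 (circ_10829), C4b with C4a (circ_1066), H2-T22 with a stretch of Gm7030 and H2-T10 (circ_119) and Ifi27l2a with Ifi27l2b (circ_1256). Ifi27l2a (-0.28, adjusted p = 0.147) and Ifi27l2b (0.24, adjusted p = 0.172) did not pass themselves. circ_2491, circ_5817 and circ_10829 did not pass with the C2S and PM libraries alone (adjusted p = 0.195, 0.084 and 0.129). Of these, circ_10829 was listed in PM libraries only and entered the test through them. circ_2755 had 8, 7 and 8 reads in C2S libraries, 7, 8 and 9 in OM libraries and 38, 40 and 35 in PM libraries (-2.28 ± 0.22), beside a change of -2.75 for Clca3a2. circ_1804, classed as intronic, ran from Mndal into a stretch shared by Mndal and Ifi203 and had 49, 50 and 39 reads in C2S libraries and none in PM libraries, but 49, 0 and 35 in OM libraries. It did not pass without C2S replicate 2 (adjusted p = 0.061). A circle across 2 related neighbours and reads placed on the wrong copy cannot be told apart here, so these counts are uncertain.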

How the data were processed

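Total RNA of 9 libraries, 3 each labelled C2S, OM and PM, was sequenced. STAR, HTSeq, RSEM and the build mm10 appear in the submitters' processing notes, without versions or roles. The deposited linear values were read as FPKM made by the authors, though no header names the unit. Multiplied by transcript length, nearly all low values were whole reads to within 0.1 reads, and that step gave the library totals. The deposited circRNA values were read as RPM of circRNA reads, also made by the authors, with a dash set to 0. No source used here gives the strand setting, so genes that overlap, antisense partners and near-identical copies are uncertain.

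Genes that reached FPKM 1 in 3 or more libraries were analysed on log2(FPKM + 1), and circRNAs listed in at least 3 libraries on log2(RPM + 111.7), a pseudocount set to the libraries' median smallest nonzero value. Limma 3.58.1 in R 4.3.3, with a mean trend and empirical Bayes moderation, was fitted to all 9 libraries with the group as the only term and 6 residual degrees of freedom, and p-values were adjusted by Benjamini-Hochberg over all features. Every adjusted p is from limma, and ± after a log2 difference is its standard error. The script was tested on simulated data. Gene names and positions are from GENCODE M21. Members and gene lists were chosen with earlier results of these data known. Named genes are the 8 highest and 8 lowest differences with no overlap, up to 8 each way of the genes with OM near PM or between, 4 each way of those that turned back from OM, up to 4 per list, and 6 circRNAs each way. Other genes named, including other list members, were chosen with their values seen. Lists are described by counts and medians, with no set test. Alternatives were another pseudocount, filters, scalings, bounds and fold thresholds, a replicate block, and leaving out each library.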

Additional observations from a re-analysis of the deposited data

How the results depend on the processing

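Of the results for named genes and circRNAs, 2117 values under the alternatives kept their direction and their side of the threshold, 32 lost the call and 9 changed sign. Those that lost a call were the genes Trps1 and Dgat2 with no filter on low values or a library left out, the circRNAs circ_1560, circ_2491, circ_5536, circ_689 and circ_2440 at a pseudocount 10 times smaller, circ_2491, circ_5817, circ_10829, circ_689 and circ_2440 with the C2S and PM libraries alone, circ_10829 with a replicate block, and circ_1804, circ_2491, circ_5536, circ_5817 and circ_10829 with a library left out. The 9 belonged to genes that did not pass in any of these settings: Acsl1 was 0.00216 with median-ratio scaling and ranged from -0.0871 to 0.0710 with a library left out, Fasn was -0.0463 with Rn7sk left out and ranged from -0.0398 to 0.115, Camp ranged from -0.102 to 0.138 and Scd1 from -0.0689 to 0.0102. Genes with OM near PM that also passed against OM numbered 20, but 47 at a pseudocount of 0.1 and 98 at a 1.5-fold threshold, where those between numbered 359, against 145 at 2-fold; without a library the first count ranged from 18 to 49, the highest without OM replicate 3. With no filter on low values, 7 macrophage and 5 blood and endothelial markers passed; with a value of at least 1 in all 9 libraries, 4 neuropeptide, 2 macrophage and 0 blood and endothelial genes did. Passing circRNAs numbered 88 when listed in at least 1 library sufficed, 173 when listed in all 3 libraries of C2S or of PM was required, 17 with only the C2S and PM libraries, and 23 to 52 with a library left out. C2S against OM gave 1384 to 3213 genes with a library left out, the lowest without C2S replicate 3 (1857 and 1705 without replicates 1 and 2). Metallothionein and zinc genes that passed ranged from 7 to 12 and antioxidant genes from 8 to 12, both lowest without PM replicate 2. Deviations of same-numbered libraries from their group means correlated at -0.092, 0.049 and 0.10 between C2S and PM, 0.084, 0.246 and 0.088 between C2S and OM, and -0.024, 0.395 and 0.374 between OM and PM; in no comparison did all 3 exceed 0.1, so the numbers were not taken to pair the libraries. With a replicate block, 7515 genes and 39 circRNAs passed between C2S and PM, 2958 genes between C2S and OM, and 21 and 146 genes were near PM and between. The cause of these shifts was not tested. A planned count test on circRNA reads was not run. CircRNAs that passed between C2S and PM had a median of 89 reads in the 6 libraries, against 11 for all tested.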
